A study of Oryza sativa with 12 samples.

Results

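In roots of the super-hybrid rice Xieyou9308 at the heading stage, transcript levels were compared with the mean of its parents, R9308 and Xieqingzao B. Levels were read from a table of SNP calls, at sites where the hybrid and both parents showed the same single base, so that no allele had to be assigned. Of 249857 sites in the table, 138838 were called in all 3 heading columns and 59974 carried the same single base in each of them. Of the 59974, 58969 carried a base other than that of the Nipponbare reference genome and 1005 carried the reference base. Sites where all 3 lines match the reference are thus largely not covered. The reads at the 59974 sites were scaled to the column sum and added up per transcript. Of the 28182 transcripts in the table, 12243, from 10865 loci, were kept with at least 20 reads in 1 column. A further 2426 transcripts had such a site but stayed under this minimum, and 13513 had no such site. At the edge of the minimum, 98 kept transcripts reached exactly 20 reads in their deepest column, and 111 transcripts left out reached 19.

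Xieyou9308 is the hybrid of the restorer line R9308, its male parent with a partly japonica genome, and of the indica line Xieqingzao B, its female parent. All were raised in the field and then moved to floating plots on nutrient solution, and roots were taken at heading and at tillering. The series holds 12 samples, 2 roots for each genotype and stage, but the authors pooled the roots before the sites were called, so each genotype and stage is 1 column of values. No spread between replicates could be computed, no test across roots was possible, and each difference below is between pooled libraries. Intervals are 95% exact (Clopper-Pearson) binomial intervals at the best covered site of a transcript alone, since neighbouring sites share reads. They hold for counting error and nothing else, and copies made by PCR were not told apart from separate molecules.

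Heterosis is the superior growth of a hybrid over its parents, and hybrid rice is its best known use in a cereal crop. If each parental allele kept its activity in the hybrid, a transcript would lie at the mean of the parents, which is called the mid-parent value or additivity. Departures are described as dominance, when the hybrid lies near one parent, or as overdominance and underdominance, when it lies above or below both. Roots take up water and nutrients, and heading is the stage at which the panicle emerges.

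Most root transcripts lay near the mid-parent value at heading. Of the 12243 transcripts, 8144 (66.5%) lay within 1.5-fold of it. In 4936 of these 8144 the hybrid also lay within 1.5-fold of each parent, so their place near the mid-parent does not tell additivity from dominance. Over all 12243, the median log2 ratio of the hybrid over the mid-parent was -0.11, with quartiles of -0.48 and 0.27. The hybrid was 2-fold or more above the mid-parent in 707 transcripts (5.77%) and 2-fold or more below it in 993 (8.11%). It lay above both parents, by at least 1.5 times the higher one, in 871 transcripts (7.11%), and below both, under the lower one by at least 1.5 times, in 1000 (8.17%). The larger number below both did not hold in 4 of 19 other settings, among them median-of-ratios scaling, with 993 transcripts above both parents and 873 below both. In 475 of the transcripts above both and 640 of those below both, the parents themselves differed by less than 1.5-fold.

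The remaining transcripts were placed by their position on the log2 line through the parents, with Xieqingzao B at 0 and R9308 at 1. Where the parents differed by 1.5-fold or more, the hybrid was near R9308 (position above 2/3) in 2559 transcripts (20.9%), near Xieqingzao B (below 1/3) in 1103 (9.01%) and between them in 1108 (9.05%). The parents were alike in the other 5602 transcripts (45.8%), which stayed outside all of these classes. The classes near a parent also hold transcripts beyond that parent by less than 1.5-fold. With a class margin of 1, 1241 of the 2559 stayed near R9308 and 657 of the 1103 near Xieqingzao B. The rest of the 2559 and 1103 then lay above or below both parents. More than 2 transcripts lay near R9308 for each one near Xieqingzao B, a ratio of 2.32, and the ratio stayed between 1.3 and 2.71 in 19 other treatments of the same table. The share above both parents was 11.2% among the 3063 transcripts with the fewest reads (22 to 130 over the 3 columns) and 4.80% among the 3060 with the most (962 or more), and the share below both was 12.1% and 4.77%.

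**Figure D1:**
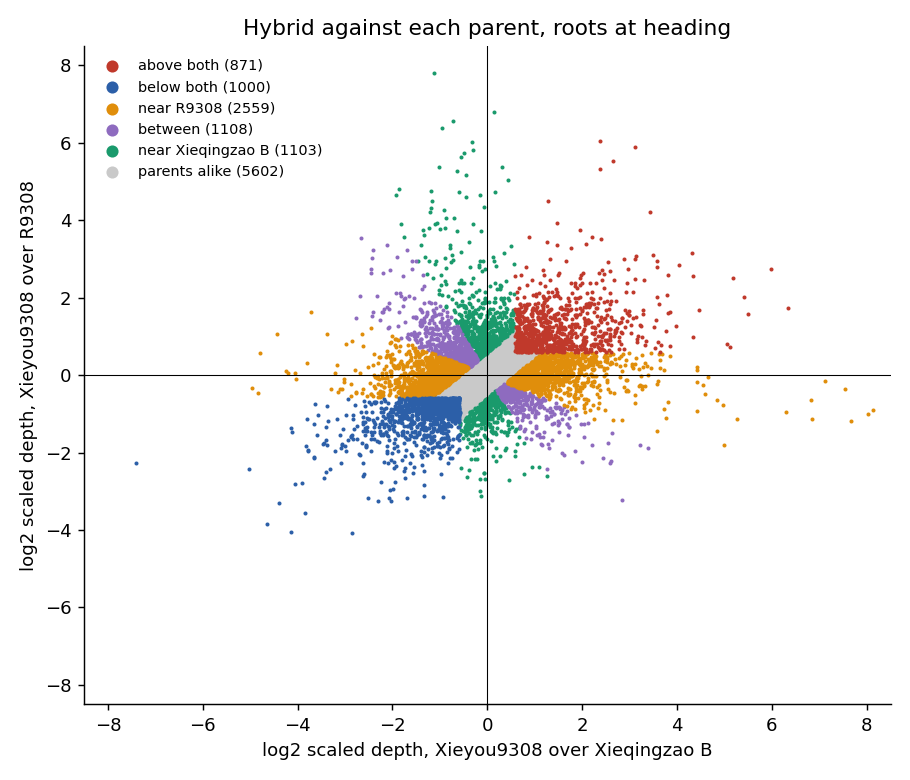
The log2 ratio of scaled depth of Xieyou9308 over R9308 is plotted against that over Xieqingzao B for each of the 12243 transcripts at heading, coloured by class. The 871 transcripts above both parents fill the upper right, the 1000 below both the lower left, and the 2559 near R9308 spread along the horizontal line, where hybrid and R9308 are equal.

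At heading, the hybrid library as a whole stood nearer to R9308 than to Xieqingzao B. Across the 12243 transcripts, the log2 scaled depth of Xieyou9308 had a Pearson correlation of 0.93 with R9308 and 0.88 with Xieqingzao B, and the parents had 0.87 with each other. The hybrid differed 2-fold or more from R9308 in 14.6% of the transcripts and from Xieqingzao B in 25.2%, while the parents differed from each other in 24.0%. These values are a description across transcripts of the same 3 libraries, without a spread between replicates to set them against. At tillering the order was the other way, with correlations of 0.82 with R9308 and 0.90 with Xieqingzao B. The column sums were 4157578 reads in Xieyou9308, 4299546 in R9308 and 4970329 in Xieqingzao B, with medians of 21, 22 and 28 reads per site.

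Transcripts above both parents were ranked if they had 3 or more sites and a counting interval that left out a ratio of 1. The 8 highest of these lay 6.01 to 12.3 times over the mid-parent. None of the 8 has a gene name in the sources used here, so they are given by identifier, whose leading digits give the chromosome. Os02t0630300-01, on chromosome 2, had 300 reads in Xieyou9308, against 35 in R9308 and 18 in Xieqingzao B, a log2 ratio over the mid-parent of 3.62. At its best covered site the hybrid was 9.09 times R9308 (95% interval 5.21 to 17.1), and its 3 sites lay between 3.29 and 3.996 on the log2 scale. The hybrid thus stood apart from the higher parent at each site of this transcript.

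Os12t0637200-01, on chromosome 12, was the deepest of the 8, with 3367 reads in Xieyou9308, 76 in R9308 and 639 in Xieqingzao B. Its 5 sites gave log2 ratios of 3.13 to 3.77 over the mid-parent, and the interval at the best site ran from 5.42 to 7.68 times Xieqingzao B. Os12t0291100-01, on the same chromosome, had 381 reads in Xieyou9308, 6 in R9308 and 88 in Xieqingzao B, a log2 ratio of 3.26. In both of these the parents were also far apart, 7.27-fold and 12.7-fold, and the hybrid exceeded the higher parent.

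Os08t0550200-01 and Os06t0725200-01 showed the hybrid above parents that were nearly equal to each other. Os08t0550200-01 had 138 reads in Xieyou9308, 18 in R9308 and 19 in Xieqingzao B (log2 ratio 3.05). Os06t0725200-01 had 402 reads in Xieyou9308, 64 in R9308 and 80 in Xieqingzao B (log2 ratio 2.64, and 2.27 to 3.02 over its 4 sites). In each of these 2 transcripts all 4 sites lay above the mid-parent. Os02t0761300-00 (152, 28 and 21 reads in Xieyou9308, R9308 and Xieqingzao B) and Os09t0564600-01 (536, 53 and 152 reads, in the same order) reached log2 ratios of 2.77 and 2.59.

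Os03t0299700-01, on chromosome 3, had 951 reads in Xieyou9308, 148 in R9308 and 18 in Xieqingzao B, for a log2 ratio of 3.59, but its sites did not agree. Only 3 of its 5 sites lay above the mid-parent, and the site ratios ran from -1.82 to 3.77. At 2 further sites, where the parents differ and which the classification did not use, it had 315 reads in Xieyou9308, 44 in R9308 and 2 in Xieqingzao B, a log2 ratio of 3.92.

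Transcripts below both parents were ranked if they had 3 or more sites and a counting interval that left out a ratio of 1. The 8 lowest of these lay 7.42 to 19.8 times under the mid-parent, and each of their sites lay below it. Os04t0617900-01, on chromosome 4, had 11 reads in Xieyou9308, against 164 in R9308 and 331 in Xieqingzao B, a log2 ratio of -4.31. The hybrid had only 3 reads at its best site, so the ratio to R9308 there was loosely bound, at 0.0134 to 0.210. Os01t0949800-01, on chromosome 1, had 79 reads in Xieyou9308, 965 in R9308 and 1360 in Xieqingzao B, a log2 ratio of -3.71. Its 3 sites agreed closely, between -3.92 and -3.59, and at 3 further sites that differ between the parents the reads were 83, 846 and 1307 in Xieyou9308, R9308 and Xieqingzao B (log2 ratio -3.49).

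The most deeply read of the 8 was Os02t0584200-01, on chromosome 2, with 704 reads in Xieyou9308, 5145 in R9308 and 14007 in Xieqingzao B over 14 sites. Its log2 ratio was -3.57, and the hybrid was 0.107 times R9308 at the best site (95% interval 0.0820 to 0.138). Os02t0823100-01, on the same chromosome, had 574 reads in Xieyou9308, 3367 in R9308 and 7278 in Xieqingzao B (log2 ratio -3.02). In both of these R9308 was the lower parent, and the hybrid lay under it.

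Os08t0113000-01 (180, 714 and 2941 reads in Xieyou9308, R9308 and Xieqingzao B) and Os08t0157600-02 (113, 624 and 1343 reads, in the same order), both on chromosome 8, had log2 ratios of -3.13 and -2.93. Os04t0633900-00 had 15 reads in Xieyou9308, 141 in R9308 and 103 in Xieqingzao B (log2 ratio -2.89), and -3.06 at 1 site that differs between the parents. It was the only one of the 8 in which Xieqingzao B was the lower parent. Os05t0253200-01, on chromosome 5, changed most with the kind of site. Its 10 shared sites gave 76 reads in Xieyou9308, 770 in R9308 and 1919 in Xieqingzao B (log2 ratio -3.95). At 2 sites that differ between the parents it had 37 reads in Xieyou9308, 2 in R9308 and 111 in Xieqingzao B, a log2 ratio of -0.35.

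**Figure D2:**
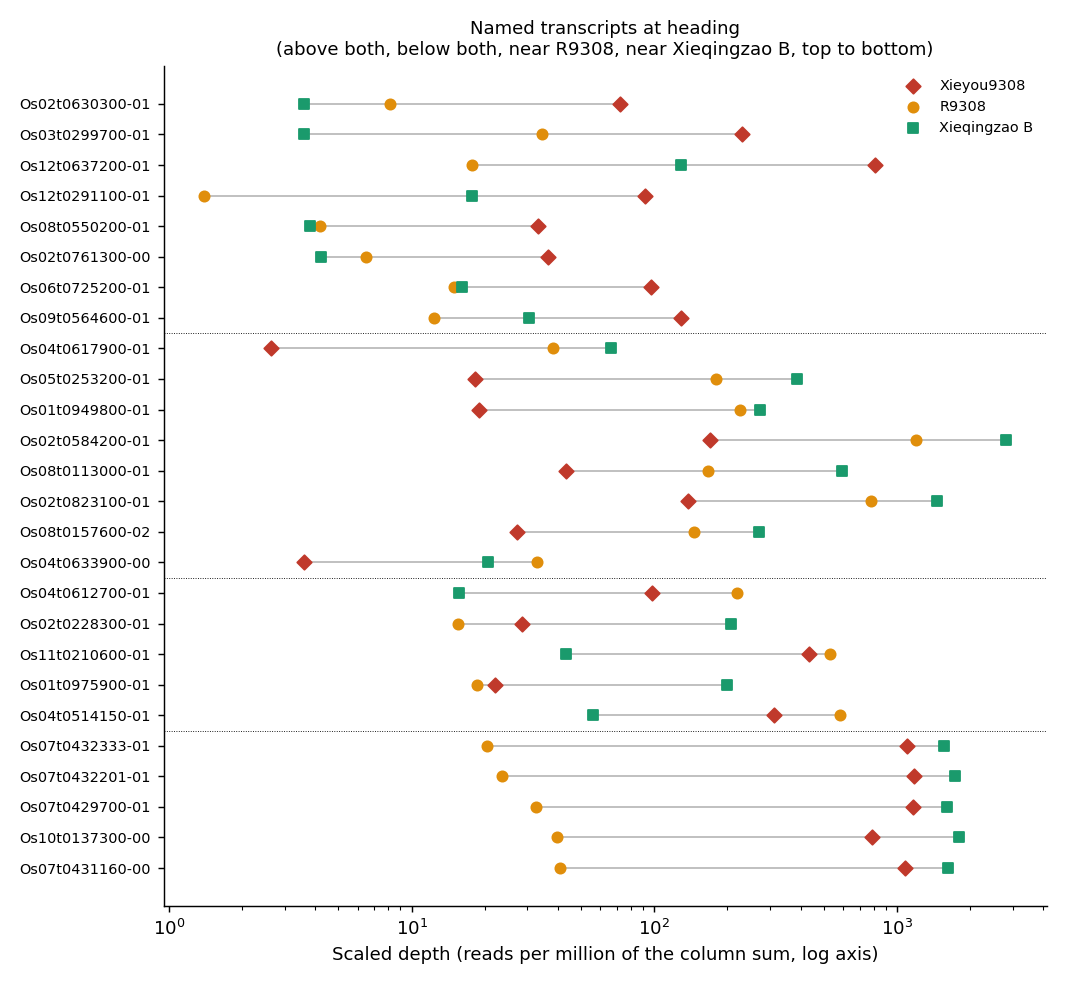
Scaled depth at heading, as each column's reads scaled to a common column sum, on a log axis, is shown for the named transcripts, with a diamond for Xieyou9308, a circle for R9308 and a square for Xieqingzao B. In the top 8 rows the diamond lies right of both parents and in the next 8 left of both, and in the 2 lowest groups of 5 it lies nearer to R9308 and nearer to Xieqingzao B.

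Where the parents differed 2-fold or more, the place of the hybrid depended on which parent was higher. This held for 2934 transcripts, of which 1309 were near R9308, 720 between, 558 near Xieqingzao B, 206 above both and 141 below both. The median position was 0.722 over both directions. With R9308 the higher parent (1263 transcripts) the median position was 0.876, and with Xieqingzao B higher (1671 transcripts) it was 0.602. An exact mid-parent value at a 2-fold difference lies 0.585 of the way to the higher parent. It would thus also have a higher position where R9308 is higher. The median log2 ratio over the mid-parent was 0.36 with R9308 higher and -0.415 with Xieqingzao B higher, on the R9308 side in both. The hybrid was closer to R9308 in 78.5% of those with R9308 higher and 59.4% of those with Xieqingzao B higher.

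At the widest parental differences, the median position was nearer to R9308 only where R9308 was the higher parent. At 8-fold or more, 99 transcripts with R9308 higher had a median position of 0.859, and 61 of them were near R9308. The 140 with Xieqingzao B higher had a median of 0.335, and 68 of them were near Xieqingzao B. In both directions the hybrid at such differences thus lay nearer to the higher parent on the log2 scale, as a mid-parent value also would, at 0.723 of the way to it for an 8-fold difference. The median log2 ratio over the mid-parent was 0.19 with R9308 higher and -0.49 with Xieqingzao B higher. Both medians thus lay on the R9308 side of the mid-parent.

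**Figure D3:**
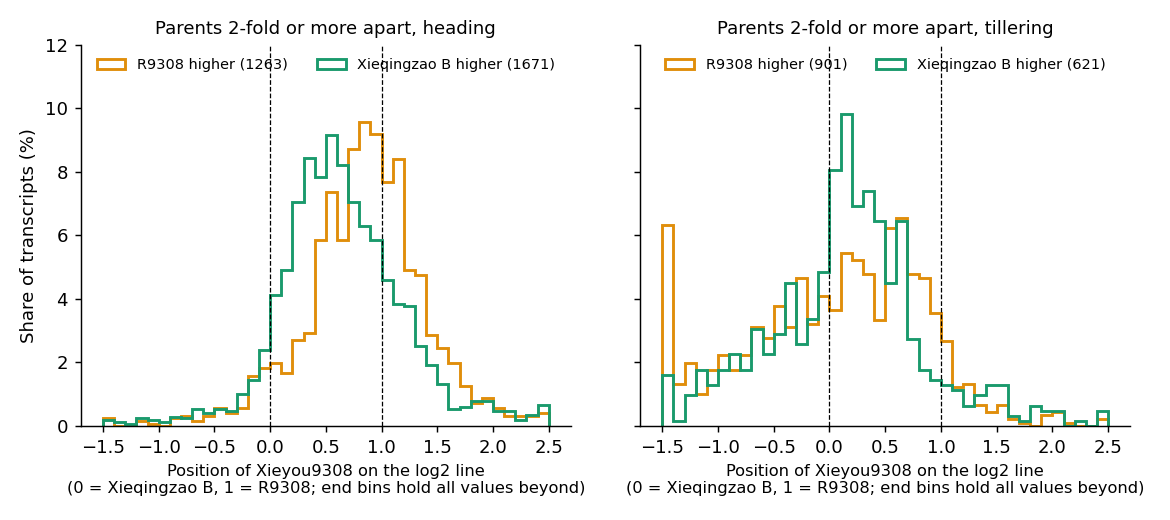
The share of transcripts is plotted against the position of Xieyou9308 on the log2 line from Xieqingzao B (0) to R9308 (1), for transcripts whose parents differ 2-fold or more, at heading on the left and tillering on the right. At heading the curve for R9308 higher peaks near the R9308 line (median 0.876) and that for Xieqingzao B higher lies further left (0.602), and at tillering both are centred near Xieqingzao B (0.162 and 0.175).

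Of the transcripts near R9308, the 5 with the widest parental difference and 50 or more reads in every column included 3 with R9308 the higher parent and 2 with Xieqingzao B higher. Os11t0210600-01, on chromosome 11, had 1802 reads in Xieyou9308, 2282 in R9308 and 215 in Xieqingzao B, a position of 0.919. Os01t0975900-01 had 92 reads in Xieyou9308, 80 in R9308 and 992 in Xieqingzao B, a position of 0.927, and its interval at the best site, 0.751 to 1.98 times R9308, took in a ratio of 1. The hybrid was thus as high as R9308 in the one and as low in the other, within 1.5-fold. Os02t0228300-01 (119, 67 and 1026 reads in Xieyou9308, R9308 and Xieqingzao B), Os04t0612700-01 (408, 938 and 78 reads) and Os04t0514150-01 (1299, 2509 and 279 reads, in the same order) had positions of 0.765, 0.697 and 0.733. Os04t0612700-01 and Os04t0514150-01 lay close to the mid-parent value, with log2 ratios of -0.25 and -0.03.

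Of the transcripts near Xieqingzao B, 4 of the 5 with the widest parental difference were close together on chromosome 7, by their identifiers. Os07t0432333-01 had 4568 reads in Xieyou9308, 88 in R9308 and 7738 in Xieqingzao B over 9 sites, a parental difference of 76.1-fold. Os07t0432201-01 (4869, 101 and 8581 reads in Xieyou9308, R9308 and Xieqingzao B), Os07t0429700-01 (4841, 140 and 7953 reads) and Os07t0431160-00 (4468, 175 and 8038 reads, in the same order) had nearly the same levels. Their positions ran from 0.0805 to 0.111, and the hybrid lay 1.30 to 1.43 times over the mid-parent. The same 4 transcripts were near Xieqingzao B at tillering too, with 5186, 144 and 11963 reads for Os07t0432333-01 in Xieyou9308, R9308 and Xieqingzao B. Reads that fit several of these transcripts could have been shared among them by the mapping, so they may not be 4 separate measurements.

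Os10t0137300-00, on chromosome 10, was the other of the 5, with 3269 reads in Xieyou9308, 170 in R9308 and 8912 in Xieqingzao B and a parental difference of 45.4-fold. The hybrid lay below the mid-parent at heading (log2 ratio -0.22) and at tillering (-0.77). Transcripts without a called read in a genotype could not be seen here, because a site had to be called in all 3 columns.

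Sites where the parents carry different bases gave a further reading of the same libraries, at sites the classification did not use, though reads that span both kinds of site count at both. There were 35374 such sites, and 2792 of the kept transcripts also had 20 or more reads at them, with a Pearson correlation of 0.80 and a Spearman correlation of 0.78 between the log2 ratios at the 2 kinds of site, as a description across transcripts. Of 163 transcripts above both parents, 161 were above the mid-parent again, with a median log2 ratio of 1.25 at both kinds of site, and 117 (71.8%) were above both again, against 7.20% of all 2792. Of 236 below both, 228 were below the mid-parent again, but the median was -0.90 against -1.14 at the shared sites, and 110 (46.6%) were below both again, against 7.13% of all 2792. Of the transcripts near a parent, 338 of 606 near R9308 and 126 of 287 near Xieqingzao B had the same class at the differing sites, which were the classes of 23.7% and 13.0% of all 2792.

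**Figure D4:**
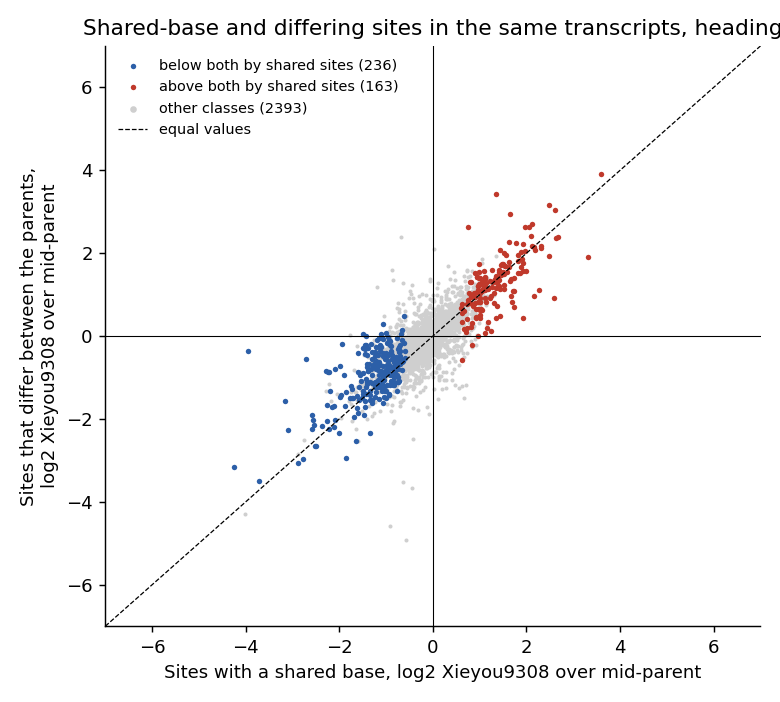
The log2 ratio of Xieyou9308 over the mid-parent at sites that differ between the parents is plotted against that at sites with a shared base, for 2792 transcripts at heading, with the dashed line at equal values. The 163 transcripts above both parents scatter about the line, and the 236 below both have a median nearer to 0 on the vertical axis (-0.90) than on the horizontal one (-1.14).

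The classes at heading were mostly not those at tillering. At tillering, treated by the same rule, 10781 transcripts were kept, of which 1314 (12.2%) were 2-fold or more above the mid-parent, 1632 (15.1%) 2-fold or more below it, 2075 (19.2%) above both parents and 1914 (17.8%) below both. The SD of the log2 ratio over transcripts was 0.72 at heading and 1.01 at tillering. The parent that more transcripts lay near also changed, with 2559 near R9308 and 1103 near Xieqingzao B at heading, against 558 and 1089 at tillering. With parents 2-fold or more apart, the median position was 0.722 at heading and 0.168 at tillering, and at sites that differ between the parents it was 0.661 and 0.235. This did not hold for the 175 transcripts with Xieqingzao B 2-fold or more higher at both stages, whose median position was 0.328 at heading and 0.338 at tillering, with 85 and 82 of them near Xieqingzao B. For the 210 with R9308 2-fold or more higher at both stages it was 0.632 at heading and 0.259 at tillering.

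In the 9228 transcripts kept at both stages, the log2 ratios over the mid-parent at heading and tillering had a Pearson correlation of 0.08 and a Spearman correlation of 0.05, and the log2 ratios of the parents had 0.36 and 0.13. Of 688 transcripts above both at heading, 166 (24.1%) were above both at tillering, beside 17.6% of all 9228. These 166 made up 10.2% of the tillering list, beside 688 of all 9228 above both at heading. Another 158 of the 688 (23.0%) were below both at tillering, beside 18.4% of all. Of 611 below both at heading, 154 (25.2%) were below both at tillering, beside 18.4% of all 9228. These 154 made up 9.06% of the tillering list, beside 611 of all 9228 below both at heading. Another 81 of the 611 (13.3%) were above both at tillering, beside 17.6% of all. Transcripts above both parents at heading were thus found above both and below both at tillering in similar numbers.

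**Figure D5:**
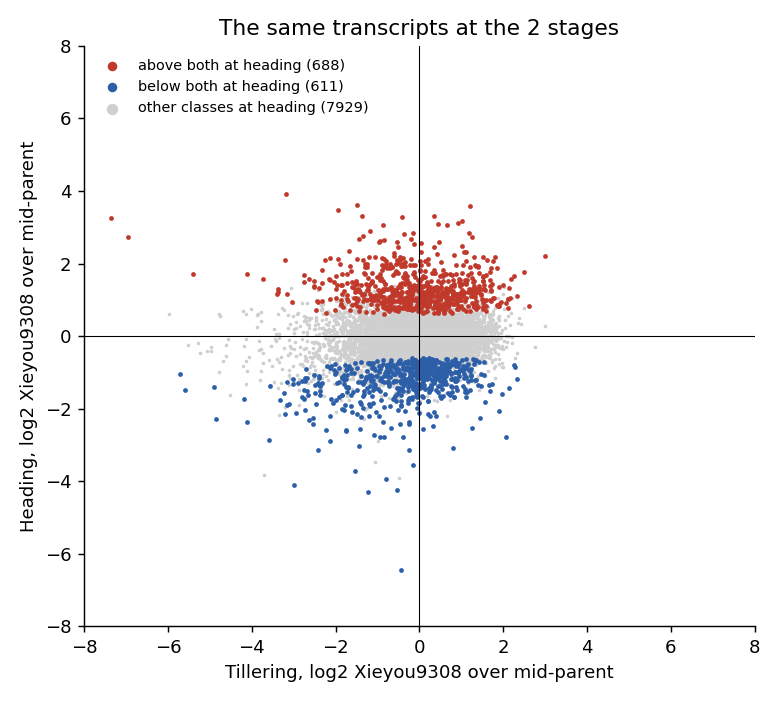
The log2 ratio of Xieyou9308 over the mid-parent at heading is plotted against that at tillering for 9228 transcripts. The 688 transcripts above both parents at heading (upper band) and the 611 below both (lower band) spread to both sides of 0 at tillering, with medians there of -0.01 and -0.13.

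The named transcripts also differed between the stages. Of the 8 highest at heading, Os03t0299700-01 alone was above both at tillering (22, 15 and 9 reads in Xieyou9308, R9308 and Xieqingzao B, log2 ratio 1.20). Os12t0291100-01 had a log2 ratio of 3.26 at heading and -7.37 at tillering, where its reads were 4 in Xieyou9308, 1807 in R9308 and 2 in the other parent. Of the 8 lowest, Os01t0949800-01 and Os02t0823100-01 were below both again, at -1.54 and -1.45, while Os02t0584200-01 lay near the mid-parent at tillering (-0.16).

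Some loci above or below both parents were neighbours. Among the 10865 kept loci in the order of their identifiers there were 13 runs of 3 or more above both and 16 of 3 or more below both. With 7.11% and 8.17% of all transcripts in these classes, some such runs would arise in any order, and their number was not computed. In the runs below both that start at Os02t0829400, Os04t0475100, Os11t0549605 and Os11t0593000, the counting interval of every member took in a ratio of 1. The longest run below both held 5 loci on chromosome 1, Os01t0949700-01, Os01t0949800-01, Os01t0949900-01, Os01t0950200-01 and Os01t0950300-01, with log2 ratios of -0.93, -3.71, -2.58, -2.17 and -3.60. The value of Os01t0950300-01 rests on 5 reads in Xieyou9308, 88 in R9308 and 43 in Xieqingzao B at 1 site, and that of Os01t0949700-01 on sites from -2.20 to -0.27 with a counting interval that took in a ratio of 1. Os01t0949900-01 had 84 reads in Xieyou9308, 510 in R9308 and 612 in Xieqingzao B, and Os01t0950200-01 had 31, 180 and 125 reads, in the same order. Both loci of the run that were kept at tillering, Os01t0949800-01 and Os01t0949900-01, were below both parents there as well. Neighbouring loci with similar sequence may share mapped reads, and this was not tested.

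The longest run above both held 4 loci on chromosome 3, with log2 ratios of 0.95 to 2.10. Os03t0368900-01 had 2320 reads in Xieyou9308, 1538 in R9308 and 1093 in Xieqingzao B, and Os03t0369000-01 had 469 reads in Xieyou9308, 130 in R9308 and 154 in Xieqingzao B. Os03t0369200-00 (102, 53 and 6 reads in Xieyou9308, R9308 and Xieqingzao B) and Os03t0369600-00 (50, 12 and 14 reads, in the same order) were read less deeply. Of the 3 kept at tillering, Os03t0368900-01 and Os03t0369600-00 were below both parents there, with log2 ratios of -2.42 and -2.27. By chromosome, the share above both ran from 5.18% on chromosome 11 to 9.30% on chromosome 10, and the share below both from 7.20% on chromosome 8 to 10.4% on chromosome 11.

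The sites of a transcript differed among themselves, with a median range of 0.91 in the log2 ratio over the 6825 transcripts with 3 or more sites. The transcripts of one locus had the same class in 744 (62.9%) of 1183 loci with several kept transcripts, and 1 locus held a transcript above both and another below both. The counting interval against the nearer parent, on reads that also set the class, left out a ratio of 1 in 631 of the 871 transcripts above both and 560 of the 1000 below both, and took it in for the rest. Sites with 2 bases in a parent occurred in 33.4% of the transcripts above both, 36.4% of those below both and 34.9% of all.

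Annotations were at hand for 38 loci, several of them only as hypothetical genes. These loci were chosen for their allelic bias in the same samples, so their values are a description. Of these, 14 loci (16 transcripts) were kept, with 1 transcript above both parents, 1 below both, 2 near R9308, 4 between, 5 near Xieqingzao B and 3 with parents alike, beside 7.11%, 8.17%, 20.9%, 9.05%, 9.01% and 45.8% of all 12243 transcripts in these classes. None was 2-fold above the mid-parent and 2 were 2-fold below it, beside 5.77% and 8.11% of all, and the median log2 ratio was -0.004, beside -0.11 for all. Os11t0669100-01, a calmodulin, the calcium sensor that passes calcium signals on to other proteins, was the one above both. It had 867 reads in Xieyou9308, 565 in R9308 and 535 in Xieqingzao B, a log2 ratio of 0.80. At 6 sites that differ between the parents it had 1442, 1114 and 761 reads in Xieyou9308, R9308 and Xieqingzao B and a log2 ratio of 0.81. There it also lay above both parents, but by less than 1.5-fold over R9308, and so fell into the class near R9308. At its best site the hybrid was 1.61 times R9308 (95% interval 1.38 to 1.87), and at tillering the log2 ratio was -0.52.

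The transcript below both was Os07t0158900-02, of a locus with a cyclin-like F-box domain, a kind of domain that in many proteins selects targets for degradation. It had 84 reads in Xieyou9308, 182 in R9308 and 462 in Xieqingzao B, a log2 ratio of -1.74. The other transcript of the locus, Os07t0158900-01, had 61 reads in Xieyou9308, 92 in R9308 and 195 in Xieqingzao B (log2 ratio -1.05). It was classed near R9308, though it lay under both parents, by less than 1.5-fold under R9308. Os11t0208800-01, similar to a receptor-like protein kinase, was near Xieqingzao B, with 454 reads in Xieyou9308, 141 in R9308 and 741 in Xieqingzao B. Os02t0271900-01, with a Myb transcription factor domain, had 137, 189 and 158 reads in Xieyou9308, R9308 and Xieqingzao B and parents that were alike.

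Of the 6 loci linked to disease resistance, 1 had a kept transcript. Os02t0272900-01, with an NB-ARC domain, the nucleotide-binding switch of plant immune receptors, had 46 reads in Xieyou9308, 83 in R9308 and 36 in Xieqingzao B at its single site and lay between the parents (log2 ratio -0.26). At 11 sites that differ between the parents its log2 ratio was 0.20, so the side of the mid-parent was not settled. The other 5 loci were read only at sites that differ between the parents. Os07t0617100-01, of a disease resistance response protein family, had 221 reads in Xieyou9308, 28 in R9308 and 636 in Xieqingzao B there, and Os11t0229300-00, similar to an NBS-LRR immune receptor, had 1787, 727 and 1955 reads, in the same order. Both were near Xieqingzao B by the same class limits. Of the others, Os07t0127700-01 and Os07t0129200-01, similar to pathogenesis-related proteins, and Os09t0511000-02, of a chitin elicitor receptor kinase locus, were near R9308, and Os09t0511000-01 of that locus lay between the parents.

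At the sites that differ between the parents, 42 transcripts of the 38 loci could be read, with 1 above both, 2 below both, 16 near R9308, 7 between, 12 near Xieqingzao B and 4 with parents alike. Of all 8074 transcripts read at such sites, 8.34% were above both, 7.41% below both, 23.2% near R9308, 12.6% between and 12.5% near Xieqingzao B. The parents were alike in 36% of the 8074. The listed transcript above both was Os07t0638400-01, similar to 1-Cys peroxiredoxin, an enzyme that removes peroxides. It had 493 reads in Xieyou9308, 240 in R9308 and 120 in Xieqingzao B at a single site, a log2 ratio of 1.63 over the mid-parent. Os06t0143400-01, similar to an acyl-ACP thioesterase, which releases fatty acids from their carrier in the plastid, was near R9308 with 1484 reads in Xieyou9308, 1805 in R9308 and 214 in Xieqingzao B.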

How the data were processed

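The authors removed poor reads and bases from paired-end sequences, merged both roots of a genotype at a stage, used RSEM for alignment against the Nipponbare genome (IRGSP), and deposited 1 table of SNP calls. It holds, per site of a transcript, the reference base, the called base or bases, the depth (whole reads, or a pair where 2 bases were called) and the quality score that the authors deposited. The caller's role is not given in the sources used here. The submitters' processing notes name CASAVA 1.8 and SAMtools 0.1.16.

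Sites with the same single base in the 3 heading columns were used. Depth was divided by the column sum over these sites and summed per transcript, and transcripts with 20 or more reads in 1 column were kept. The log2 ratio of Xieyou9308 over the arithmetic mean of the parents was computed, and classes used a margin of 1.5 and cut points at 1/3 and 2/3 of the log2 line between the parents. No count model was run, since a group is 1 pooled column, and no p-value is given. Column sums were 4157578 to 4970329 reads at heading. Neighbouring sites share reads, so summed reads count some fragments more than once. Ratios also shifted along transcripts, by the last site minus the first in 6026 transcripts with sites 500 bases or more apart. The median log2 shift was -0.149 for the hybrid over R9308, -0.021 over Xieqingzao B and -0.064 over the mid-parent. For R9308 over Xieqingzao B it was 0.137, and the effect on the classes was not tested. Mapping to a japonica reference can favour the line closer to it, and the share of lost reads was not measured.

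Named transcripts were, by rule, the 8 highest above both and the 8 lowest below both with 3 or more sites and a counting interval that excluded 1, the 5 with the widest parental difference near each parent with 3 or more sites and 50 reads in every column, kept resistance transcripts, other annotated ones above both, below both or past 2-fold, and the longest runs. Other annotated transcripts were chosen after their values were seen, as were the tillering and differing-site examples. The classification, lists and named rules were chosen with earlier results of these data known. The reference gene table (assembly ASM3414082v1) matched 1 of 23892 loci, so pathway lists and root markers could not be applied and the tissue was not checked. Results were recomputed under 17 other settings, and under 3 more chosen after seeing the data. The tools were scipy 1.17.1, numpy 2.4.6, pandas 2.3.3 and, for figures, matplotlib 3.10.9, under Python 3.11.15.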

Additional observations from a re-analysis of the deposited data

Results flagged for a closer look

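In 5 of the 38 named transcripts, the longest runs included, the hybrid lay 2-fold or more on opposite sides of the mid-parent at the 2 stages. Many of the 38 were named for extreme ratios at heading. The share over all transcripts kept at both stages was not computed, so the 5 say nothing about how common this is. The difference between stages was not tested, because each stage is 1 pooled library per genotype. The log2 ratio of Xieyou9308 over the mid-parent was 3.62 at heading and -1.48 at tillering for Os02t0630300-01, and 3.47 at heading and -1.94 at tillering for Os12t0637200-01. It was 3.26 at heading and -7.37 at tillering for Os12t0291100-01, and 2.77 at heading and -1.36 at tillering for Os02t0761300-00. For Os03t0369600-00, of the longest run above both parents, it was 2.10 at heading and -2.27 at tillering. For Os02t0761300-00 the tillering value rests on 7 reads in Xieyou9308, 29 in R9308 and 16 in Xieqingzao B. For Os12t0291100-01 it rests on 4, 1807 and 2 reads, in the same order. At tillering Os12t0291100-01 was classed near Xieqingzao B, not below both parents.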

How the results depend on the processing

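The direction of the median log2 ratio and the larger class near R9308 than near Xieqingzao B held in all alternatives run, except that the median turned positive at sites with the reference base. No paired analysis was possible because the roots were pooled into 1 column per genotype and stage, and leaving out a replicate could not be run for the same reason. Of 166 counts and medians recomputed, 118 stayed within 1.5 times the main count or, for the median, within its 95% interval over transcripts. That interval, -0.1184 to -0.0957, takes the transcripts as independent and uses no read counts. The other 48 did not, many of them in settings that kept fewer or more transcripts. The main median log2 ratio of -0.1065 became -0.0324 with median-of-ratios scaling, -0.0918 with no read minimum, -0.0553 against the geometric mid-parent and -0.1210 without transcripts with 2-base sites in a parent. The numbers 2-fold above and below the mid-parent were 828 and 845 with median-of-ratios scaling and 967 and 792 against the geometric mid-parent, so the larger number below nearly vanished with the scaling and turned against the geometric mid-parent. The larger number below both parents than above both turned in 4 of 19 settings, which were median-of-ratios scaling (993 above both and 873 below both), sites with the reference base, all sites called in the 3 columns and a class margin of 2.

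With 20 reads in every column 10081 transcripts were kept, of which 418 (4.15%) were 2-fold above the mid-parent and 549 (5.45%) 2-fold below it. Of the same 10081, 575 (5.7%) were above both parents and 655 (6.5%) below both (median -0.0955). In the main setting these shares were 5.77%, 8.11%, 7.11% and 8.17%, so the shares fell as well as the counts. With sites of 10 reads or more in every column, chosen after seeing the data, 10170 were kept. Of these, 431 (4.24%) were 2-fold above and 572 (5.62%) 2-fold below. Sites with the reference base gave 370 transcripts, of which 34 were 2-fold above, 37 2-fold below, 44 above both, 29 below both, 78 near R9308, 60 near Xieqingzao B and 57 between (median 0.0353). All sites called in the 3 columns gave 19453 transcripts, with 1206 2-fold above, 1476 above both, 1458 below both, 4133 near R9308, 1987 near Xieqingzao B and 1978 between (median -0.0899). With 3 or more sites 6825 were kept, with 353 2-fold above, 490 2-fold below, 450 above both, 505 below both, 1440 near R9308, 615 near Xieqingzao B and 561 between. Without transcripts with 2-base sites in a parent, also chosen after seeing the data, 7974 were kept, with 437 2-fold above, 646 2-fold below, 564 above both, 1659 near R9308, 634 near Xieqingzao B and 643 between.

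The class margin set the sizes of the outer classes. With a margin of 1, 3323 transcripts were above both, 4429 below both, 1241 near R9308 and 657 near Xieqingzao B. With a margin of 2, 352 were above both and 349 below both. At the best covered site alone, 670 of the 738 transcripts above both that were still kept remained above both, and 760 of 889 remained below both.

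For the named transcripts, 574 of 596 recomputed ratios stayed within a margin for counting error. The margin came from the counting interval at the best covered site, which is against a parent and not the mid-parent. Settings that changed only the minimum of reads or sites per transcript drop whole transcripts and cannot change a kept ratio. The 574 include such ratios, so their number does not measure how well the ratios held. Of the 596, 7 changed sign, all of them near 0 or against another mid-parent. Os02t0272900-01 became 0.1154 over all called sites. Os04t0514150-01 became 0.0972 at its best site, 0.0041 as the median over sites and 0.7877 against the geometric mid-parent. Os04t0612700-01 became 0.0246 at sites with 10 reads in every column and 0.7460 against the geometric mid-parent, and Os10t0137300-00 became 1.5622 against it. Os05t0253200-01, at -3.95 over shared sites, was -2.39 over all called sites.

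Of the sites, 28.9% had under 10 reads in Xieyou9308, 28.7% in R9308 and 23.5% in Xieqingzao B, and the outer classes were larger among transcripts with few reads. A transcript without a called read in a genotype could not be seen.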
